A study of Mus musculus with 198 samples.

Results

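The kinesins are motor proteins that walk along microtubules, and the Kif genes encode most of them. The Kif probes described here are all probes of the array whose annotated symbol is Kif followed directly by a digit, with Kif3a left out. They numbered 46 probes of 26 genes, among 25697 probes in all. Signal was measured on Illumina MouseRef-8 v2.0 arrays in male mice of the Hybrid Mouse Diversity Panel. Whole hippocampus was profiled for 99 strains on 100 arrays, and whole striatum for 97 strains on 98 arrays. The labels give neither an age nor a treatment. The panel combines classical inbred strains with recombinant inbred strains, each of which fixes a mosaic of the genomes of 2 parents. The BXD strains descend from C57BL/6J and DBA/2J, the AXB/BXA strains from A/J and C57BL/6J, and the BXH strains from C57BL/6J and C3H/HeJ. In hippocampus there were 30 BXD, 28 AXB/BXA, 11 BXH and 30 other inbred strains, and in striatum 30, 28, 10 and 29. B6Cc3 had 2 arrays in each tissue, which were averaged, and the other strains 1. Over all probes the 2 B6Cc3 arrays correlated at r = 0.981 in hippocampus and 0.974 in striatum, against medians of 0.983 and 0.982 over all pairs of arrays of a tissue. The other strains had no replicate, and every spread given is among strains. The 97 strains measured in both tissues carried the pairing used below.

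Kinesins differ in what they carry and where. Kinesin-1 (Kif5a, Kif5b, Kif5c), kinesin-2 (Kif3b, Kif3c, Kif17) and kinesin-3 (Kif1a, Kif1b, Kif1c, Kif13a) haul vesicles, organelles and proteins away from the cell body along axons, dendrites and cilia, and neurons depend on them because their processes are long. Kif21a and Kif2a act on the microtubules themselves, the first restraining growth at the plus end and the other taking tubulin off the ends. Most other members, among them Kif11, Kif15, Kif18a, Kif20a, Kif23 and Kif2c, build the mitotic spindle or complete cell division, a task that mature neurons no longer perform.

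Probe and protein sequences of the members were not used here, but the RefSeq promoter table (build GRCm38.p6, 250 bases before to 50 after a gene's start) matched 23 of the 26 genes. The first pair shown belongs to the kinesin-3 genes whose brightest probes varied together among strains in both tissues. The other pair sets Kif22, the only cell division kinesin with a probe kept for testing (detected on at least 20% of the arrays of a tissue), beside Kif11, a spindle motor whose probe was detected on no array. Capitals mark matches, on either strand, to the CCAAT box (CCAAT), the GC box (GGGCGG) and the cell cycle homology region (TTTGAA or TTTAAA). The TATA box (TATAAA) was searched too.
Kif1a promoter, chr1:93101825-93102124, minus strand: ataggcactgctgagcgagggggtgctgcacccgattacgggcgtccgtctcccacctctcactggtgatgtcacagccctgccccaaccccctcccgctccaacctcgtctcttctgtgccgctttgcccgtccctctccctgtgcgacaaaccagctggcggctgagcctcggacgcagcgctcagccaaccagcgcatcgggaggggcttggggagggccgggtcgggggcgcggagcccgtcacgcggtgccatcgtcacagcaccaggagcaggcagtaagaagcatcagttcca
Kif1b promoter, chr4:149307684-149307983, minus strand: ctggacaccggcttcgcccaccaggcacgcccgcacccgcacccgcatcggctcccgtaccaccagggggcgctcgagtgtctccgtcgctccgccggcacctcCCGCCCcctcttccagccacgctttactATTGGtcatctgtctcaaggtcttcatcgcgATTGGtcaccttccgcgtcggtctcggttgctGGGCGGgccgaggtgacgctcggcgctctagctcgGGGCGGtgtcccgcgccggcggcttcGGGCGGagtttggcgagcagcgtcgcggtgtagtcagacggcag
Kif22 promoter, chr7:127042371-127042670, minus strand: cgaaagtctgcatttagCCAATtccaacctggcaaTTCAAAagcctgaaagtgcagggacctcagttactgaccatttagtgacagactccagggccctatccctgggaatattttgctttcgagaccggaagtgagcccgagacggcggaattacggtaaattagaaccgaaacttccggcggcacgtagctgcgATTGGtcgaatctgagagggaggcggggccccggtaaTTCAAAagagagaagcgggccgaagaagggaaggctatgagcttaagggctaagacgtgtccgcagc
Kif11 promoter, chr19:37376132-37376431, plus strand: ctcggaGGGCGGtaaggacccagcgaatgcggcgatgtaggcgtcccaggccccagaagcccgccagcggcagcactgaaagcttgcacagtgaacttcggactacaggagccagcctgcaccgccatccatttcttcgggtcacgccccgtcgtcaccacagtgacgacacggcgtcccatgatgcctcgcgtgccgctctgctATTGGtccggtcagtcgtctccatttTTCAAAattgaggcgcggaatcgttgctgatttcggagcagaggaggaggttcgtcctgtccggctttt
The Kif1a window held none of these motifs, whereas that of Kif1b held 2 CCAAT boxes and 4 GC boxes. The Kif22 window held 2 CCAAT boxes and 2 TTTGAA matches, and the Kif11 window 1 CCAAT box, 1 GC box and 1 TTTGAA match. Among all 32851 promoter windows of this length, 37.4% held CCAAT, 35.7% GGGCGG, 17.9% TTTGAA, 13.2% TTTAAA and 13.6% TATAAA. Of the 23 matched Kif windows 10 belonged to genes with a kept probe and 13 to genes without one. CCAAT stood in 4 of the 10 and 6 of the 13, GGGCGG in 6 and 8, TTTGAA in 2 and 6, TTTAAA in 0 and 1 and TATAAA in 2 and 2, and these differences were not tested. These are counts of letters and not of bound sites.

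More probes of transport motors than of division motors were kept, a difference that was not tested. A probe counted as detected on an array when its detection p was under 0.01, and it was kept when detected on at least 20% of the arrays of either tissue. By that rule 19 of the 46 Kif probes (41.3%), from 11 of the 26 genes, were kept, against 49.7% of all probes. Among probes of axonal transport kinesins 15 of 20 were kept, from 7 of 10 genes. Among probes of cell division kinesins 1 of 17 was kept, from 1 of 10 genes. Each gene was counted under 1 role. Kif21a and Kif2a, the 2 genes counted under microtubule dynamics, each had a kept probe (2 of 4 probes), as did 1 of the 3 cilia genes. Kif2b and Kif2c, of the same kinesin-13 family as Kif2a, were counted under cell division, and Kif24 of that family under cilia. None of these had a kept probe. Of the 27 probes that were not kept, 22 were detected on no array of either tissue, and their strain means stayed between 4.66 and 5.65 on the log2 scale.

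The cell division probes that were not kept belonged to Kif11, Kif15, Kif18a, Kif18b, Kif20a, Kif23, Kif2b, Kif2c and Kif4. Kif23, a motor of the central spindle, was detected on 0 of 100 hippocampus arrays and 2 of 98 striatum arrays. Of the 3 probes of Kif18b, a spindle motor, 1 was detected on 1 hippocampus array and on 0 striatum arrays. Of the 3 probes of Kif4, a chromokinesin, 1 was detected on 0 hippocampus arrays and 2 striatum arrays, as was the second probe of the cilia gene Kif27. Other genes of proliferating cells gave a similar picture, since 2 of the 19 probes of 12 such genes were kept and 10 were detected on no array. Kif22, a chromokinesin that binds DNA, was the exception and was detected on all 100 hippocampus arrays and all 98 striatum arrays. RefSeq also lists a Kif22 pseudogene, and whether its transcript adds to this probe was not tested.

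Not every transport motor was seen. Both Kif5b probes, for the kinesin-1 heavy chain found in most tissues, were detected on no array, as was the Kif1c probe. Kif17, a dendritic kinesin-2 motor, was detected by its better probe (ILMN_2704842) on 2 of 100 hippocampus arrays and 9 of 98 striatum arrays. Kif2a had 1 kept probe (ILMN_2781689) and 2 detected on no array, so an undetected probe did not show an absent gene. Kif12, Kif24 and Kif9 were likewise detected on no array.

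The tissues carried their own markers. All 6 tested genes of striatal neurons were at least 2-fold lower in hippocampus, and 6 of 7 tested genes of hippocampal neurons were at least 2-fold higher. The exception was Wfs1, at a mean of 10.44 in hippocampus and 10.95 in striatum. In KK striatum the mean log2 signal of the striatal neuron genes was 8.53, against a median of 12.65 over striatum strains. Over all 12775 tested probes limma called 36.7% higher in hippocampus and 38.6% lower at an adjusted p under 0.05. At 2-fold or more these shares were 3.90% and 3.52%. Of the 8 tested oligodendrocyte genes 7 were lower in hippocampus at any fold, with a median difference of -0.73. Of the 6 tested astrocyte genes 3 were higher, namely Gfap (1.76), Aqp4 (0.81) and Aldoc (0.15), and 1 was lower. Of the 5 tested choroid plexus genes 3 were higher (Kl at 0.65, Folr1 at 0.44 and Ttr at 0.38) and 0 lower. Both tested genes of proliferating cells were lower in hippocampus, Cdc20 by a log2 difference of -1.16 and Prc1 by -0.75. The Cdc20 probe was detected on 2 of 100 hippocampus arrays and 94 of 98 striatum arrays. It was thus kept through striatum alone, which tied its direction to its inclusion. The Prc1 probe was detected on 37 and 94 arrays. The part of these cell types in the differences below was not tested. In bulk tissue fewer cells of a type and less RNA per cell cannot be told apart. Several arrays stood apart from the rest of their tissue by median rank correlation, namely AXB19b/PgnJ in hippocampus (0.615) and SM (0.856), NZW (0.890) and KK (0.919) in striatum. AXB19b/PgnJ gave the lowest hippocampus value for 11 of the 19 kept Kif probes and the highest for 7. Strain-typing probes here were 495 expression probes, Kif probes excluded, whose signal fell into 2 levels among strains in both tissues of these data. They were not genotypes. By them the 2 arrays of 12 of the 97 strains did not match each other best, with AXB19b/PgnJ, SM, NZW, BXA12/PgnJ and C3H among these strains. The parts of array quality and of labels in these mismatches were not tested. The hippocampus array of AXB15/PgnJ matched the striatum array of AXB19/PgnJ at 95.4% of these probes and its own strain's at 79.6%. The hippocampus array of AXB19/PgnJ matched the striatum array of AXB15/PgnJ at 97.2% and its own strain's at 80.2%. Results that rest on the 4 arrays that stood apart are given with and without them.

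Among the kept probes, kinesin-1 and kinesin-3 gave the brightest signals. On the log2 scale with both tissues normalized together, the brightest Kif5a probe (ILMN_3065852), for the neuronal kinesin-1 heavy chain, averaged 13.15 ± 0.33 in hippocampus (SD, n = 99) and 13.36 ± 0.23 in striatum (n = 97). Kif5c, another neuron-rich heavy chain, averaged 13.05 ± 0.20 in hippocampus and 13.05 ± 0.20 in striatum. Signals of different probes are not set against each other as transcript levels, since probes differ in how well they bind. All 19 probes had overlapping ranges in the 2 tissues, as the plot of the signal in each strain shows. These full ranges include the arrays that stood apart, and the share over all probes was not counted.

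**Figure D1:**
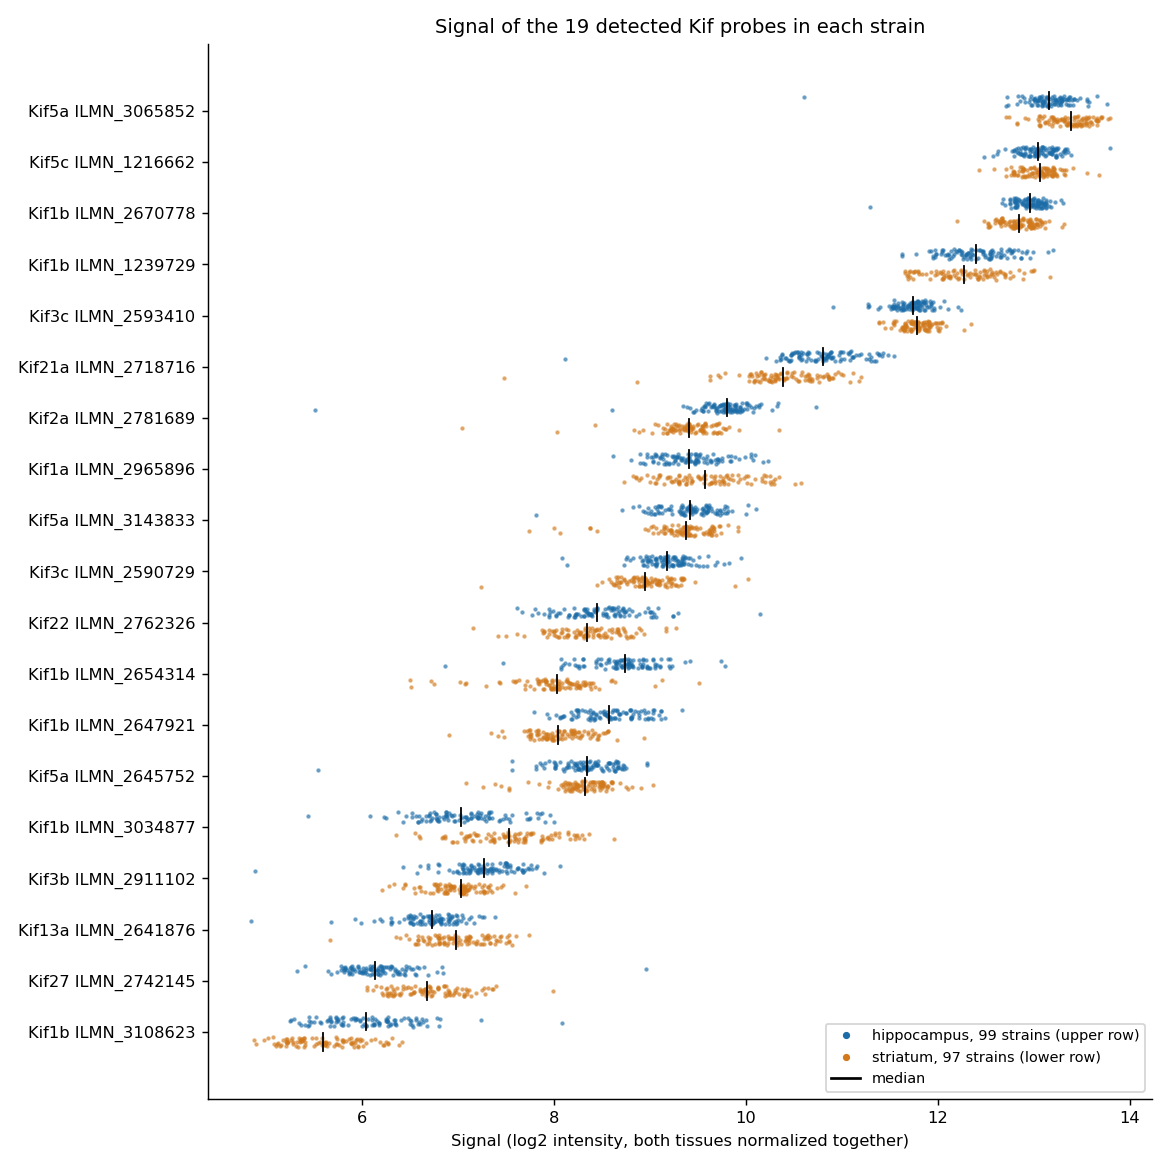
Signal of the 19 kept Kif probes on the log2 intensity scale (x axis), 1 point per strain, with the 99 hippocampus strains in the upper row of each probe and the 97 striatum strains in the lower row, and a black bar at the median. The full ranges of the tissues, arrays that stood apart included, overlap for every probe, and the share over all probes was not counted. AXB19b/PgnJ lies far from the other hippocampus values of Kif2a at 5.52.

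The next comparison asked which Kif probes differed between hippocampus and striatum. limma called 10 of the 19 kept Kif probes higher in hippocampus and 6 lower at an adjusted p under 0.05, or 10 and 5 without the 12 strains whose arrays did not match, where 36.7% of all 12775 tested probes were called higher and 38.6% lower (75.3% in either direction). Of the 10, Kif1b ILMN_3108623 was kept through hippocampus alone. No Kif probe differed by 2-fold or more in either direction, against 3.90% of all probes higher in hippocampus and 3.52% higher in striatum. At a limit of 1.5-fold 1 Kif probe was higher in hippocampus and 0 were lower, against 9.78% and 9.20% of all probes. The median absolute difference was 0.21 over the Kif probes and 0.24 over all probes tested on the log2 scale. At any fold, 4 of the 10 calls in hippocampus fell below the threshold when each array was centred on its median, namely the Kif22 probe, Kif3c ILMN_2590729 and Kif1b ILMN_1239729 and ILMN_2670778. The size of a difference in a dim probe depended on the background step, and is given below with the authors' processed values too. The deposited hippocampus signal equalled the authors' processed values and the striatum signal did not, so tissue and table cannot be told apart.

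Kif1b, a kinesin-3 motor of mitochondria and synaptic vesicle precursors, had 6 kept probes, and they did not move together. ILMN_2654314 ran from 6.87 to 9.79 with a median of 8.75 in hippocampus, and from 6.50 to 9.51 with a median of 8.04 in striatum. The ranges overlapped, but hippocampus was the higher tissue in 94 of 97 strains. The probe was 1.64-fold higher in hippocampus (log2 difference 0.71 ± 0.06 SE, limma adjusted p = 5.08e-23). ILMN_2647921 was higher by 0.52 ± 0.04, with hippocampus above striatum in 83 of 97 strains.

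The other Kif1b probes gave smaller or opposite differences. ILMN_3034877 ran from 5.44 to 8.004 with a median of 7.04 in hippocampus, and from 6.36 to 8.63 with a median of 7.54 in striatum. It was lower in hippocampus in 85 of 97 strains (log2 difference -0.50 ± 0.06 SE, limma adjusted p = 9.74e-13), by -0.25 with the authors' processed values and by -0.28 with no background correction. ILMN_3108623, annotated to the same transcript as ILMN_3034877, went the other way at 0.46 ± 0.06, or 0.13 with the authors' values and 0.17 with no background correction. It was detected on 36 of 100 hippocampus arrays and 6 of 98 striatum arrays and so was kept through hippocampus alone, which tied its direction to its inclusion. The 2 brightest Kif1b probes, ILMN_2670778 and ILMN_1239729, were higher in hippocampus by 0.10 ± 0.03 and 0.13 ± 0.05. Of the 5 Kif1b probes kept in both tissues 4 were higher in hippocampus and 1 was lower. The 4 higher probes were annotated to 1 transcript and the lower probe to another. The part of the transcript in these directions was not tested.

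Kif21a and Kif2a, the genes counted under microtubule dynamics, were both higher in hippocampus. Kif21a ran from 8.12 to 11.54 with a median of 10.81 in hippocampus, and from 7.48 to 11.20 with a median of 10.39 in striatum. Hippocampus was the higher tissue in 92 of 97 strains (1.33-fold, log2 difference 0.41 ± 0.06 SE, limma adjusted p = 3.26e-09). The lowest values belonged to AXB19b/PgnJ in hippocampus and SM in striatum, and without the arrays that stood apart the difference was 0.38. Kif2a ran from 5.52 to 10.73 with a median of 9.81 in hippocampus, and from 7.05 to 10.35 with a median of 9.41 in striatum. Hippocampus was higher in 91 of 97 strains (1.303-fold, log2 difference 0.38 ± 0.06 SE, limma adjusted p = 1.41e-08), and CAST, a wild-derived strain, gave the highest value in each tissue.

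The kinesin-2 genes were nearer to each other. Kif3b, a partner of Kif3a in the heterotrimeric motor, averaged 7.27 ± 0.39 in hippocampus and 6.98 ± 0.27 in striatum, a difference of 0.29 ± 0.05 SE, and was higher in hippocampus in 76 of 97 strains. Kif3c, whose product is enriched in neurons, was 0.21 ± 0.04 higher in hippocampus by ILMN_2590729 and lower, at -0.06 ± 0.03, by the brighter ILMN_2593410. The call of ILMN_2593410 had a limma adjusted p of 0.0365, which became 0.0843 without the arrays that stood apart. Kif22 averaged 8.50 ± 0.40 in hippocampus and 8.35 ± 0.37 in striatum (log2 difference 0.15 ± 0.05 SE, limma adjusted p = 0.0117), and 67 of 97 strains were higher in hippocampus.

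Kif27, a relative of the hedgehog pathway kinesin Kif7 that is linked to motile cilia, was dim and leaned to striatum. It ran from 5.33 to 8.96 with a median of 6.14 in hippocampus, and from 6.05 to 7.995 with a median of 6.68 in striatum. It was lower in hippocampus in 85 of 97 strains (log2 difference -0.53 ± 0.05 SE, limma adjusted p = 6.07e-18). The difference was -0.21 with the authors' processed values, -0.22 with no background correction and -0.38 with an offset of 50. The probe was detected on 37 of 100 hippocampus arrays and 88 of 98 striatum arrays. Of the 4 tested ependymal cell genes, which mark cells with motile cilia, 0 were higher in hippocampus and 1 was lower (Dynlrb2, -0.38). Over all tested probes 36.7% were called higher and 38.6% lower.

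The remaining kinesin-3 and kinesin-1 probes leaned slightly to striatum or did not pass the test. Kif13a, a carrier of endosomes and receptors, ran from 4.85 to 7.39 with a median of 6.74 in hippocampus, and from 5.67 to 7.75 with a median of 6.99 in striatum. It was lower in hippocampus by a log2 difference of -0.30 ± 0.05 SE, in 73 of 97 strains, or by -0.14 with the authors' processed values and -0.15 with no background correction. Kif1a, the kinesin-3 motor of synaptic vesicle precursors, averaged 9.42 ± 0.32 in hippocampus and 9.59 ± 0.42 in striatum, a difference of -0.18 ± 0.05 SE. Kif5a gave -0.21 ± 0.04 SE by its brightest probe and did not pass by ILMN_3143833 (0.08, 95% interval -0.02 to 0.17) or ILMN_2645752 (0.03, interval -0.07 to 0.13). Kif5c did not pass either (0.00, interval -0.05 to 0.06).

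**Figure D2:**
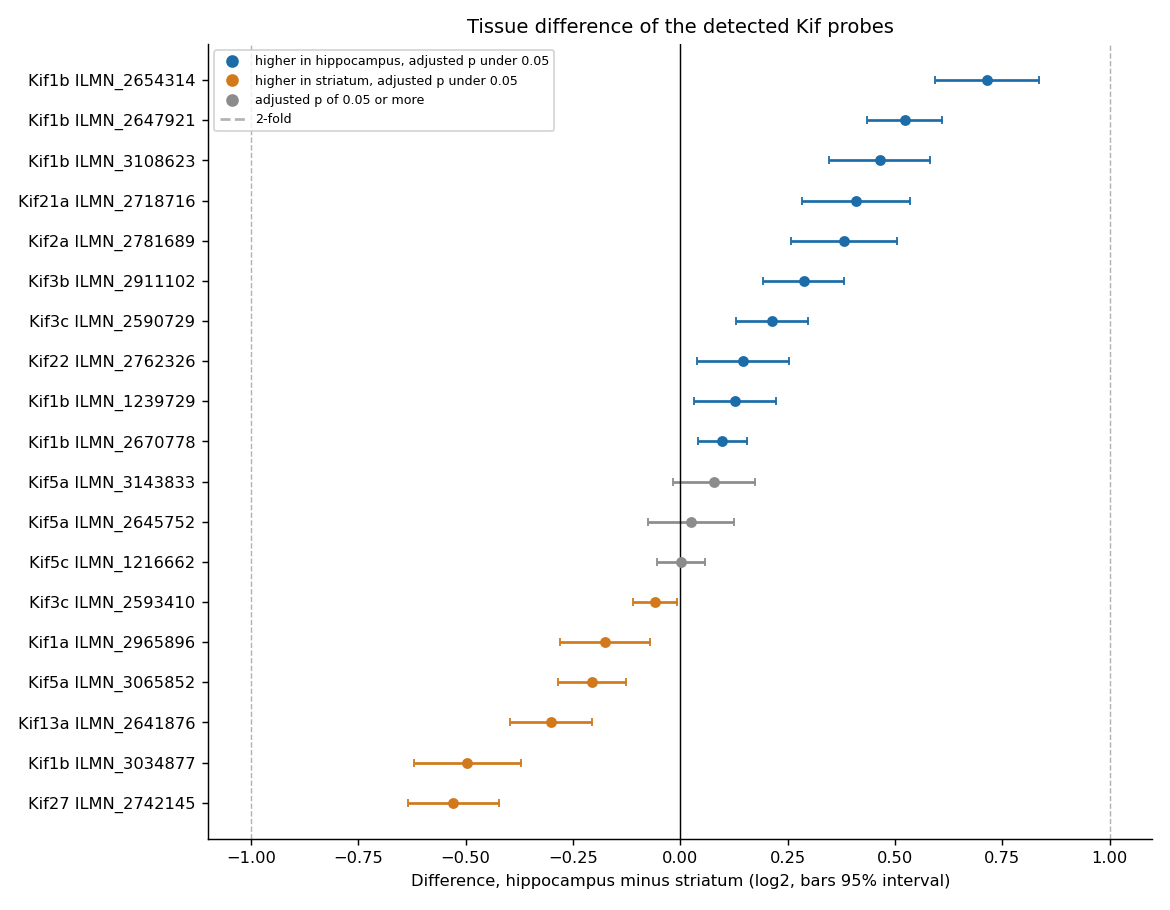
Difference between the tissues for each kept Kif probe (x axis, hippocampus minus striatum, log2), with points at the limma estimate and bars for the 95% interval. Probes past an adjusted p of 0.05 are blue where higher in hippocampus and orange where higher in striatum, dashed lines mark 2-fold, and the 19 estimates lie between -0.53 for Kif27 and 0.71 for Kif1b ILMN_2654314.

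Motors and tracks outside the Kif family, 1 probe per gene, moved in both directions. The counts below stand beside 36.7% of all tested probes called higher in hippocampus and 38.6% called lower. Of 14 tested kinesin partners 5 were higher in hippocampus and 8 lower. They included Dlgap1, a postsynaptic scaffold (1.73), Madd, an adaptor of kinesin-3 (0.57), and Mapk8ip2, a scaffold carried by kinesin-1 (0.16), and on the other side the light chain Klc3 (-1.14), the mitochondrial GTPase Rhot2 (-0.47) and Mapk8ip1 (-0.36). Of 18 tested dynein and dynactin genes, which drive transport towards the cell body, 6 were higher and 7 lower. Dync1i1, a dynein intermediate chain, led one side at 0.97, followed by the light chains Dynll1 (0.27) and Dynlt3 (0.26), and the regulator Ndel1 (-0.57), Dync1li2 (-0.33) and Nde1 (-0.28) led the other. Of 12 tested genes of the microtubule tracks 8 were higher in hippocampus, with Tubb2b (1.14), Map1b (0.66) and Tuba4a (0.57) ahead, and 2 were lower, Map7 (-0.36) and Dcx (-0.28). Of the 2 tested minus-end motors of the Kifc group, Kifc2 was higher (0.35) and Kifc3 did not pass the test (-0.06). The median difference was -0.09 over the partners, -0.04 over dynein and dynactin and 0.27 over the tracks, beside 0.10 over the Kif probes and -0.01 over all probes.

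Strain levels were compared next, on values normalized within each tissue. The SD among strains had a median of 0.33 over the 18 Kif probes kept in both tissues in hippocampus and 0.35 in striatum, against 0.36 and 0.34 over all 11746 such probes. The 4 strain sets were compared by a limma F test. It called 6 of 18 Kif probes in hippocampus, where 18.5% of all probes were called, and 9 of 18 in striatum, where 49.5% were. Without the arrays that stood apart the counts were 7 and 12, against 32% and 57.4% of all probes. The sources used here give no array batch, so a strain set and the arrays it was run on cannot be told apart.

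Kif22 was highest in the BXD strains in each tissue. In hippocampus the BXD strains averaged 8.65 ± 0.27 (SD, n = 30), the AXB/BXA strains 8.36 ± 0.49 (n = 28), the BXH strains 8.34 ± 0.28 (n = 11) and the other inbred strains 8.25 ± 0.31 (n = 30), with a limma adjusted p of 0.00341. In striatum the same sets averaged 8.60 ± 0.33, 8.38 ± 0.33, 8.30 ± 0.26 and 8.33 ± 0.44 (adjusted p = 0.0389). Of the parents of the crosses, B6 had the highest Kif22 value in both tissues, at 8.60 in hippocampus and 8.63 in striatum. DBA had 8.37 in hippocampus and 8.02 in striatum, and CAST lay above all 4 parents at 9.15 and 9.37.

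Kif1a passed this test in striatum and not in hippocampus. In striatum the AXB/BXA strains averaged 10.06 ± 0.31, the other inbred strains 9.69 ± 0.34, the BXH strains 9.63 ± 0.17 and the BXD strains 9.35 ± 0.37 (limma adjusted p = 8.38e-09). In hippocampus the same sets lay between 9.23 ± 0.26 for the other inbred and 9.41 ± 0.32 for the BXH strains (adjusted p = 0.499). A limma test of the difference itself, the interaction of tissue and strain set, gave an adjusted p of 1.42e-05. On jointly normalized values hippocampus was higher than striatum by 0.20 in the BXD strains and lower by a difference of -0.54 in the AXB/BXA strains, -0.26 in the other inbred and -0.03 in the BXH strains.

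The interaction passed for 4 of the 19 Kif probes, against 14.8% of all probes. Besides Kif1a these were Kif13a (adjusted p = 0.000417), the brightest Kif5a probe ILMN_3065852 (0.00206) and Kif5c (0.0360). In the AXB/BXA strains the hippocampus minus striatum difference was -0.67 for Kif13a, -0.47 for Kif5a and -0.10 for Kif5c. In the BXD strains it was -0.15, -0.04 and 0.14 for the same genes. AXB19b/PgnJ belongs to the AXB/BXA set and was lowest in hippocampus for Kif13a and Kif5a, but the 4 calls stood without the arrays apart (adjusted p = 9.98e-07 for Kif1a, 0.000192 for Kif13a, 0.000198 for Kif5a and 0.00384 for Kif5c). Also in this set, the arrays of AXB6/PgnJ, AXB15/PgnJ, AXB19/PgnJ, AXB19a/PgnJ, BXA1/PgnJ and BXA12/PgnJ did not match each other best between tissues. The interaction was not refitted without the strains whose arrays did not match. Without the arrays apart 8 Kif probes passed, against 25% of all probes, and with the strain as a block in the fit 7 passed, against 22.7%. With the authors' processed values 3 passed, against 15.6% of all probes, and Kif5c did not (adjusted p = 0.441).

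**Figure D3:**
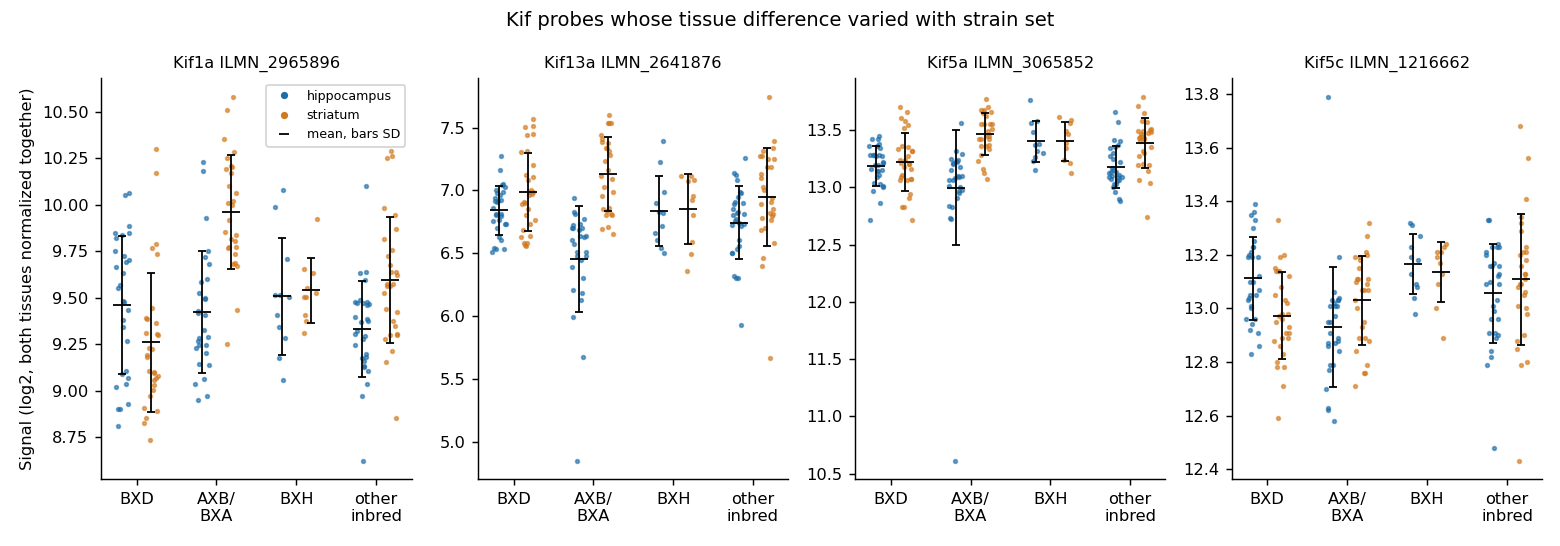
Signal of the 4 Kif probes whose tissue difference varied with strain set (y axis, log2, both tissues normalized together), 1 point per strain, with hippocampus to the left of striatum in each set and black bars for the mean and SD. For Kif1a the hippocampus minus striatum difference is 0.20 in the BXD strains and -0.54 in the AXB/BXA strains.

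The last question was whether a strain that was high in hippocampus was also high in striatum. Over the 97 strains with both arrays, 8 of the 18 Kif probes had a positive r past an adjusted p of 0.05 and 0 a negative one, against 43.1% and 0.111% of all 11746 probes. Without the strains of the arrays that stood apart 8 passed with a positive r and 0 with a negative one, against 57.9% and 0.102% of all probes. The members of the 8 changed, since Kif3b no longer passed and Kif2a did. Without the 12 strains whose arrays did not match, 7 passed with a positive r and 0 with a negative one over 85 strains, against 58.8% and 0.145%. The median r was 0.14 over the Kif probes and 0.19 over all probes. Permutation p-values below come from 100000 permutations, for which 1e-05 is the smallest value, and adjusted p-values run over all probes. The strains share parents, and the test does not account for their relatedness.

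The closest agreement belonged to 2 Kif1b probes, Kif22 and Kif21a. For Kif1b ILMN_3034877 r was 0.62 and Spearman's rho 0.65 (each permutation p = 1e-05, adjusted p = 2.14e-10), and r was 0.68 without the 2 strains farthest from the hippocampus median. Within the strain sets r was 0.73 in the BXD, 0.56 in the AXB/BXA, 0.55 in the BXH and 0.70 in the other inbred strains. Among the parents AJ was lowest, at 6.21 in hippocampus and 6.89 in striatum, and C3H highest, at 7.44 in hippocampus and 8.29 in striatum. B6 and DBA lay between them in each tissue, and C3H was among the strains whose arrays did not match each other best.

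For Kif1b ILMN_1239729 r was 0.59 and rho 0.60 (each permutation p = 1e-05), and r without the 2 farthest strains was 0.57. DBA had 11.55 in hippocampus, sharing the lowest value there to 2 decimals with BXH22, and 11.76 in striatum, where the lowest value was 11.74. B6 stood at 12.59 in hippocampus and 12.32 in striatum. The 2 Kif1b probes with close agreement between tissues were not related to each other among strains, with r of -0.18 in hippocampus (permutation p = 0.0783) and 0.10 in striatum (permutation p = 0.337). These 2 probes were annotated to different transcripts.

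For Kif22 r was 0.54 and rho 0.56 (each permutation p = 1e-05), and without the strains of the arrays that stood apart r was 0.66. It was 0.70 in the BXD, 0.73 in the BXH, 0.60 in the other inbred and 0.26 in the AXB/BXA strains. For Kif21a r was 0.50 (permutation p = 0.00091) and rho 0.73 (permutation p = 1e-05). Without the strains of the arrays apart r was 0.69, and within the sets it lay between 0.54 in the other inbred and 0.68 in the BXD strains.

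The other positive calls were weaker. Kif1b ILMN_2654314 passed with an r of 0.24 over the 97 strains (adjusted p = 0.0418), and its r was -0.082 in the BXD strains alone. For Kif3c ILMN_2590729 r was 0.32 and rho 0.10 (permutation p = 0.00364 and 0.308), and r fell to 0.11 without CAST and AXB19b/PgnJ. CAST was the lowest strain for this probe in both tissues, at 8.01 against a median of 9.09 in hippocampus and 7.30 against a median of 9.05 in striatum. The brighter Kif3c probe ILMN_2593410 did not show this. There CAST had 11.76 against a median of 11.66 in hippocampus and 11.89 against a median of 11.86 in striatum. Why the probes differed was not tested. For Kif3b r was 0.27 (permutation p = 0.00781) with rho at 0.12 (permutation p = 0.228), and r was 0.08 without AXB19b/PgnJ and BXD2/TyJ. Without the strains of the arrays that stood apart its r was 0.15 and did not pass (adjusted p = 0.218). Kif5c had an r of 0.24 and a rho of 0.24 (permutation p = 0.0184 and 0.0171), and CAST was again lowest in each tissue, at 12.41 in hippocampus and 12.50 in striatum. Its r was 0.32 without the strains of the arrays that stood apart (adjusted p = 0.0037), 0.16 without CAST, -0.036 with median centring and 0.0026 with the authors' processed values. Without CAST 5 rather than 8 Kif probes passed with a positive r and 0 with a negative one, against 39.4% and 0.136% of all probes.

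Kif2a ran the other way. Its r was 0.00 over all strains (rho 0.26, permutation p = 0.0106 for rho) and 0.30 without the strains of the arrays that stood apart (adjusted p = 0.00757), and 0.42 without the strains whose arrays did not match. CAST was highest in each tissue, at 10.64 in hippocampus and 10.44 in striatum. The r of 0.30 included CAST. Without CAST, and with the arrays that stood apart left in, r was -0.055. For Kif13a r was -0.02 and for Kif1a 0.09, and neither passed. The brightest Kif1b and Kif5a probes had r of 0.00 and 0.11 and did not pass.

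**Figure D4:**
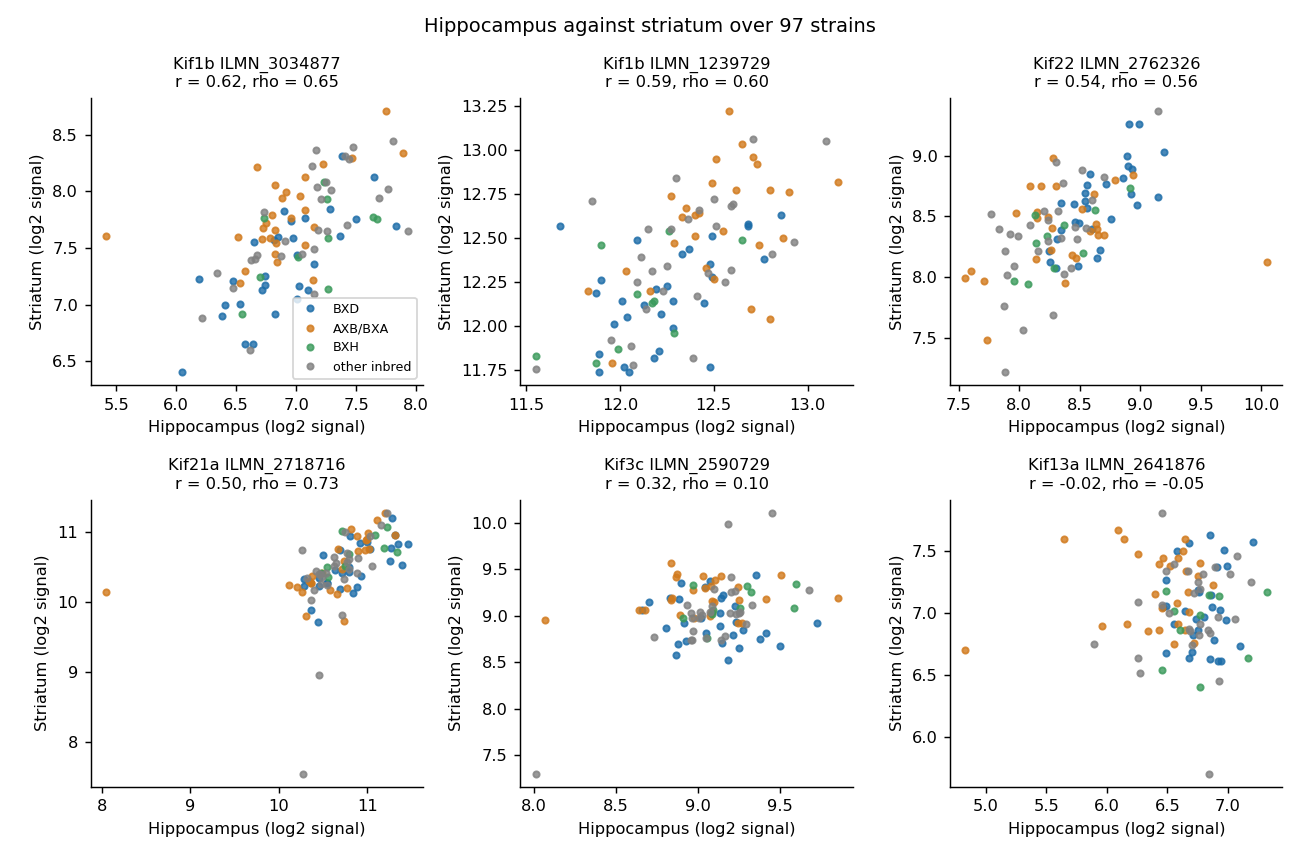
Hippocampus signal (x axis) against striatum signal (y axis) of 6 Kif probes, on the log2 scale normalized within each tissue, 1 point per strain over 97 strains and coloured by strain set. Kif1b ILMN_3034877 (r = 0.62) and ILMN_1239729 (0.59), Kif22 (0.54) and Kif21a (0.50) run along a diagonal, whereas Kif3c ILMN_2590729 (0.32) has CAST far from the rest and Kif13a (-0.02) shows no slope.

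In striatum 3 Kif probes fell into 2 levels by a normal mixture, against 8.61% of all probes, and in hippocampus 0 of 18 did, against 6.10%. They were Kif5a ILMN_3143833 (91 strains high, 6 low), Kif5a ILMN_2645752 (90 high, 7 low) and Kif1b ILMN_2654314 (90 high, 7 low). The strains BXA12/PgnJ, BXA2/PgnJ, BXD38/TyJ, KK, NZW and SM were low for all 3 probes. For Kif5a ILMN_3143833 they stood at 8.45, 8.53, 7.81, 8.46, 8.08 and 8.14 in that order, and the lowest of the other 91 striatum strains was 9.05. In hippocampus the same strains lay between 8.92 and 9.48, inside the range of the rest.

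The brightest Kif5a probe did not share this split. By ILMN_3065852 the 6 strains stood between 12.80 and 13.82 in striatum and the other 91 between 12.77 and 13.80. Together with CAST (0.927) the 6 were the striatum arrays of lowest median rank correlation, at 0.922 for BXA12/PgnJ and 0.934 for BXA2/PgnJ and BXD38/TyJ beside the values of SM, NZW and KK given above. By the strain-typing probes their hippocampus and striatum arrays had the same level at 66.7% of probes for SM, 76.4% for NZW, 78.4% for BXA12/PgnJ, 81.6% for KK, 83.03% for BXA2/PgnJ and 87.3% for BXD38/TyJ. Some other gene lists also differed between the 6 strains and the others in striatum, and some hardly did. The mean signal of 18 dynein and dynactin genes was between 10.03 and 10.64 in the 6 strains and between 10.49 and 10.98 in the others, and that of 8 oligodendrocyte genes between 11.05 and 12.02 (median 11.65) in the 6 and between 11.37 and 12.70 (median 12.20) in the others. The median was 10.96 in the 6 strains and 11.22 in the others for astrocyte genes, 8.41 and 8.01 for hippocampal neuron genes, 8.16 and 7.76 for ependymal genes and 9.63 and 9.03 for the Kifc genes. It was 10.51 and 10.5 for kinesin partners, 12.69 and 12.65 for striatal neuron genes and 6.97 and 6.86 for proliferating cell genes. For microtubule tracks it was 10.97 and 11.06, and for choroid plexus genes 8.485 and 8.70. Beside their close medians, the striatal neuron genes ran from 8.53 (KK) to 12.88 in the 6 strains and from 10.82 to 12.96 in the others. The part of array quality, strain identity and these lists in the split was not tested. Among the strains of the high level r between tissues was 0.34 for Kif1b ILMN_2654314 (rho 0.17, permutation p = 0.00188 and 0.114), 0.11 for Kif5a ILMN_2645752 and 0.05 for ILMN_3143833. With SM, NZW and KK left out too few low strains remained to make a level, and 0 of 18 probes were called in hippocampus and 0 in striatum, against 7.16% and 7.50% of all probes.

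**Figure D5:**
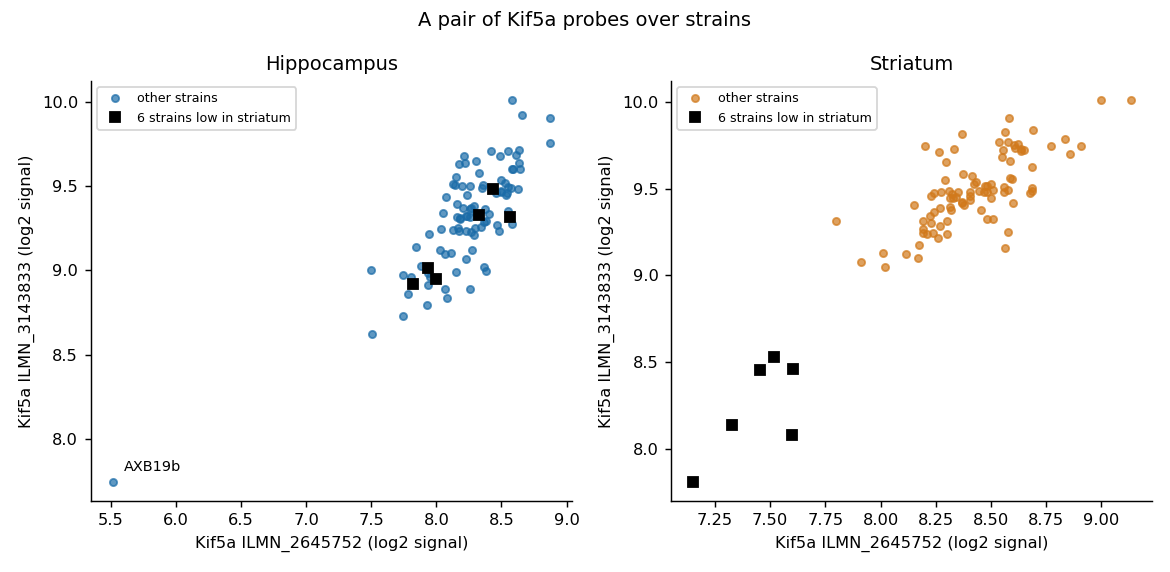
A pair of Kif5a probes plotted against each other (both axes log2 signal, normalized within each tissue), 1 point per strain, with hippocampus on the left and striatum on the right. Black squares are the 6 strains that were low in striatum, where they lie at or below 8.53 for ILMN_3143833 while the lowest other strain is at 9.05, and AXB19b/PgnJ is the lone low point in hippocampus.

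Probes of the same gene were then set against each other. The genes with more than 1 kept probe were Kif1b, Kif3c and Kif5a. Among strains 11 of 19 pairs in hippocampus and 5 of 14 in striatum had a positive r past an adjusted p of 0.05, against 62.8% and 65.1% of all pairs of probes that share a gene. In hippocampus 1 Kif pair was negative, against 9.81% of all pairs, and in striatum 0 were, against 7.78%. Without the arrays apart 12 pairs in hippocampus and 6 in striatum were positive, against 62.4% and 65.4%, and 0 were negative in either tissue, against 3.99% and 5.59%.

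The Kif5a pair ILMN_2645752 and ILMN_3143833 had the closest relation. In hippocampus r was 0.81 and rho 0.70 (each permutation p = 1e-05), with r at 0.75 without AXB19b/PgnJ. In striatum, among the 90 strains of the high level, r was 0.72 and rho 0.69 (each permutation p = 1e-05). The brightest Kif5a probe related to ILMN_3143833 with r of 0.50 in hippocampus, which became 0.20 without AXB19b/PgnJ (adjusted p = 0.0774).

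For Kif1b 7 of 15 pairs in hippocampus and 3 of 10 in striatum were positive, and 9 and 4 were without the arrays apart. ILMN_2647921 and ILMN_2654314 had r of 0.50 in hippocampus, or 0.72 without AXB19b/PgnJ, and 0.50 in striatum among the 90 strains of the high level. The pair of Kif3c probes had r of 0.55 in hippocampus and 0.47 in striatum (each permutation p = 1e-05), or 0.47 and 0.33 without the arrays apart.

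Most pairs of different Kif genes had an r below 0.5. Over the brightest probe of each of the 11 genes and without the arrays that stood apart, the median r of the 55 pairs was 0.08 in hippocampus (98 strains) and 0.12 in striatum (94 strains), beside -0.00302 and -0.00433 over pairs of all probes. The r ran from -0.38 to 0.62 in hippocampus, with 2 pairs over 0.5, and from -0.42 to 0.70 in striatum, with 4 pairs over 0.5. These values are descriptions, and the genes share their arrays and normalization. Kif1a and Kif1b had r of 0.62 in hippocampus and 0.67 in striatum. Kif1a and Kif5a had 0.70 in striatum, Kif5a and Kif1b 0.57 in striatum, and Kif5c and Kif3c 0.53 in hippocampus. These values pool the strain sets, and values within the sets were not examined. In striatum the AXB/BXA strains averaged highest and the BXD strains lowest for the brightest Kif1a, Kif5a and Kif1b probes.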

How the data were processed

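Whole hippocampus and whole striatum of male mice were profiled on Illumina arrays. The authors used the rank invariant normalization of BeadStudio (version not given in the sources used here), and the deposited tables give each probe an intensity with its detection p-value. The deposited hippocampus intensities equalled the authors' processed series table for 100% of values within a relative tolerance of 1e-05. The striatum intensities equalled it for 0.00822%. Whether the hippocampus values in both places had been normalized was not tested. Here limma 3.58.1 in R 4.3.3 corrected background (normexp from the detection p-values, offset 16), followed by quantile normalization and log2, jointly for tissue differences and within each tissue otherwise. Tissue differences were fitted without a block. Probes were kept when detected at p under 0.01 on at least 20% of arrays of either tissue (12775), or of each (11746). Benjamini-Hochberg adjustment ran over all kept probes, with a threshold of 0.05. A probe had 2 levels where a mixture of 2 normals lowered the Bayesian information criterion by over 10, with means at least 3 SD apart and no level of under 6 strains. The limma and correlation steps were tested on simulated data. The strain labelled 129X1 in hippocampus was taken as X129X1 in striatum. Values were given in full for kept members with the largest tissue differences, SDs or r, with 2 levels, with an interaction, or of genes with several kept probes, and for the 3 largest differences in each direction of other lists. Members, lists and alternatives were chosen with earlier results of these data known. Arrays have no read depth, so precision rests on their number and on signal above background. The median array detected 43.7% of probes in hippocampus and 43.9% in striatum. The p-values measure only the spread among strains. Alternatives changed the signal, background, normalization, filters, pairing, arrays and strain sets.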

Additional observations from a re-analysis of the deposited data

Results flagged for a closer look

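The hippocampus minus striatum difference of 4 Kif probes varied among the strain sets by the interaction test in limma. Kif1a (ILMN_2965896) had an adjusted p of 1.42e-05, with differences of 0.20 in the BXD, -0.54 in the AXB/BXA, -0.03 in the BXH and -0.26 in the other inbred strains. Kif13a (ILMN_2641876) had an adjusted p of 0.000417, with -0.15, -0.67, -0.02 and -0.21 for the same sets. The Kif5a probe ILMN_3065852 had an adjusted p of 0.00206, with -0.04, -0.47, -0.0031 and -0.21 in that order. Kif5c (ILMN_1216662) had an adjusted p of 0.036, with 0.14, -0.10, 0.03 and -0.05. The AXB/BXA strains thus had the lowest difference for all 4 probes. Only the BXH striatum set was small enough for a check of single distant strains, and 0 of its 19 probes had one, where chance gives about 1 in 20.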

How the results depend on the processing

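Counts of Kif probes depended on the fold limit and on which strains were used. With no fold limit 10 were higher in hippocampus and 6 in striatum, and at 1.5-fold 1 was higher in hippocampus. That 1 became 0 with the authors' processed values, with no background correction and in the BXH strains alone, and 3 in the BXD strains alone, while at 1.5-fold 3 rather than 0 were higher in striatum in the AXB/BXA strains alone. At any fold, 6 rather than 10 were higher in hippocampus with median centring, 4 in the AXB/BXA strains alone and 4 in the BXH strains alone. In striatum 3 rather than 6 were higher in the BXD strains alone, 1 in the BXH strains alone and 15 with no filter on detection. Agreement between tissues passed for 5 rather than 8 probes without CAST, for 3 in the BXD and for 2 in the AXB/BXA strains alone. The interaction of tissue and strain set passed for 8 rather than 4 probes without the arrays that stood apart and for 7 with the strain as replicate block. Levels in striatum were called for 1 rather than 3 probes with the authors' processed values and for 0 without the strains of the arrays apart. Pairs of probes of a gene passed in striatum for 8 rather than 5 with the authors' values. The block for strain left the tissue counts at 10 and 6. In 94 of 97 strains the deviations of the 2 tissues correlated above 0.1 (median 0.46). Values that passed in one setting or the other and turned direction were the tissue differences of Kif1a (0.20) and Kif3c ILMN_2593410 (0.031) in the BXD strains, Kif1b ILMN_2670778 (-0.038) in the AXB/BXA strains and Kif5a ILMN_2645752 (-0.21) in the BXH strains. The r between tissues turned for Kif1b ILMN_2654314 (-0.082) and Kif3c ILMN_2590729 (-0.19) in the BXD strains, and for Kif5c with median centring (-0.036) and in the AXB/BXA strains (-0.19). Of the other values of single probes under an alternative, 210 tissue differences and 185 correlations kept their side of the threshold, 28 and 23 were weaker and 4 and 3 stronger. Of those that kept their side, 7 and 14 turned sign with neither value passing, among them the differences of Kif5a ILMN_3143833 (-0.15 in BXH, -0.020 with median centring), Kif5a ILMN_2645752 (-0.020 with centring, -0.011 in AXB/BXA) and Kif5c (-0.036 with centring, -0.10 in AXB/BXA, -0.055 in other inbred strains). Among the correlations the r of Kif13a was -0.019, against 0.10 in the BXD, 0.12 in the AXB/BXA and 0.10 in the other inbred strains, and that of Kif2a was -0.30 in the AXB/BXA strains. The cause of these changes was not tested. Smaller sets hold fewer strains.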
